A study of Mus musculus with 4 samples.

Results

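The enzymes that carry carbon from acetyl-CoA to squalene form the linear part of cholesterol synthesis. Their 9 genes were taken by symbol in pathway order (Acat2, Hmgcs1, Mvk, Pmvk, Mvd, Idi1, Fdps, Fdft1 and Sqle). The rule uses symbols and no values, but the set was chosen with earlier results of these data known, so the counts describe it and are not independent evidence. A probe counted for a gene only when the platform annotation gave that symbol alone. By that rule 8 of the 9 genes had values, on 14 of 43379 probes and among 19087 genes in all, and Acat2 had no such probe and was not analysed here.

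Each of the 4 two-colour arrays set liver RNA of a resveratrol-treated Wrn mutant mouse, whose Wrn protein lacks a functional helicase domain, against liver RNA of an untreated wild-type mouse. Wrn is the RecQ helicase altered in the premature ageing disorder Werner syndrome, and resveratrol is a plant polyphenol. All animals were labelled male, C57Bl/6 and 9 months old, with food and water freely available and a reversed light-dark cycle. Of dose and length of treatment, the hour of killing and the exact allele the sources used here say nothing. The mutants were 4 different animals (mutants 1 to 4 on arrays 1 to 4), whereas wild-type animal 2 served arrays 1 and 3 and wild-type animal 4 served arrays 2 and 4. Mutant RNA was labelled with Cy5 on the first pair of arrays (1 and 2) and with Cy3 on the other pair (3 and 4). Genotype and treatment differed together and cannot be told apart here. Xist, the RNA made from the inactive X chromosome in female cells, had ratios of -1.81, -2.66, -1.62 and -2.12 on arrays 1 to 4 as deposited, below 0 on each (mean -2.05 ± 0.46, SD, n = 4 arrays; limma adjusted p = 0.0400). Male cells make little of this RNA, so these values go against the male label given to both sides, and a difference in sex between the sides could not be told apart from genotype and treatment.

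Values are the deposited log2 ratios, averaged over a gene's probes. Values above 0 likely mean more RNA in the mutant than in the wild type, a direction taken from the series title and the channel order. Whether the dye-swapped arrays 3 and 4 had already been given that direction is not stated. Over all probes, arrays with the same dye on the mutant correlated at 0.19 (arrays 1 and 2) and 0.21 (arrays 3 and 4), and pairs of opposite dye at -0.18 to 0.11, so the correlations do not settle it. The values were used as deposited, a choice made with earlier results of these data known, and turning arrays 3 and 4 is given as the alternative. Wrn itself had log2 ratios between -0.81 and 0.75 on the 4 arrays, and since nothing here says if its probes lie in the altered part, it checks no label. Ratios show no absolute level, so the labelled tissue could not be checked against its markers. In whole liver, a change in the number of cells of a type and a change in RNA per cell cannot be told apart.

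Cholesterol is built from acetyl-CoA in the cytosol and endoplasmic reticulum. Thiolase and HMG-CoA synthase make HMG-CoA, which is reduced to mevalonate; kinases and a decarboxylase turn mevalonate into isopentenyl diphosphate; and these isoprene units are joined to farnesyl diphosphate and then squalene. Liver is a major site of the pathway, and its genes are textbook targets of SREBP-2, a transcription factor that is released from the endoplasmic reticulum when membrane sterol is low.

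In build GRCm38.p6 the RefSeq annotation places Hmgcs1 at chr13:119690351-119708260, Mvk at chr5:114444264-114460591, Pmvk at chr3:89454541-89469014 and Mvd at chr8:122433596-122443422. Idi1 lies at chr13:8885606-8892396, Fdps at chr3:89093588-89101967, Fdft1 at chr14:63145150-63181687 and Sqle at chr15:59315092-59331193. All are protein-coding genes, and the place of each probe within its transcript was not used here.

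All 8 measured enzymes had a mean ratio above 0, between 0.61 for Fdft1 and 1.60 for Fdps, with a median of 1.10. The median over all genes was -0.0046. None of the 8 passed limma's test after Benjamini-Hochberg adjustment over all genes, where 0.246% of genes passed in either direction and 0.0786% as higher, and their adjusted p-values ran from 0.0946 to 0.573. At an unadjusted limma p under 0.05 and a mean above 0 there were 8 of the 8, against 3.1% of all genes. On all 4 arrays 7 of the 8 lay above 0, against 7.69% of all genes, and Sqle was the exception. A mean of 1 or more was reached by 7 of the 8 and by 0.87% of all genes. These counts hold for the ratios as deposited: with the signs of arrays 3 and 4 turned, 1 of the 8 means lay above 0, 0 of the 8 reached an unadjusted limma p under 0.05, and the median was -0.19.

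**Figure D1:**
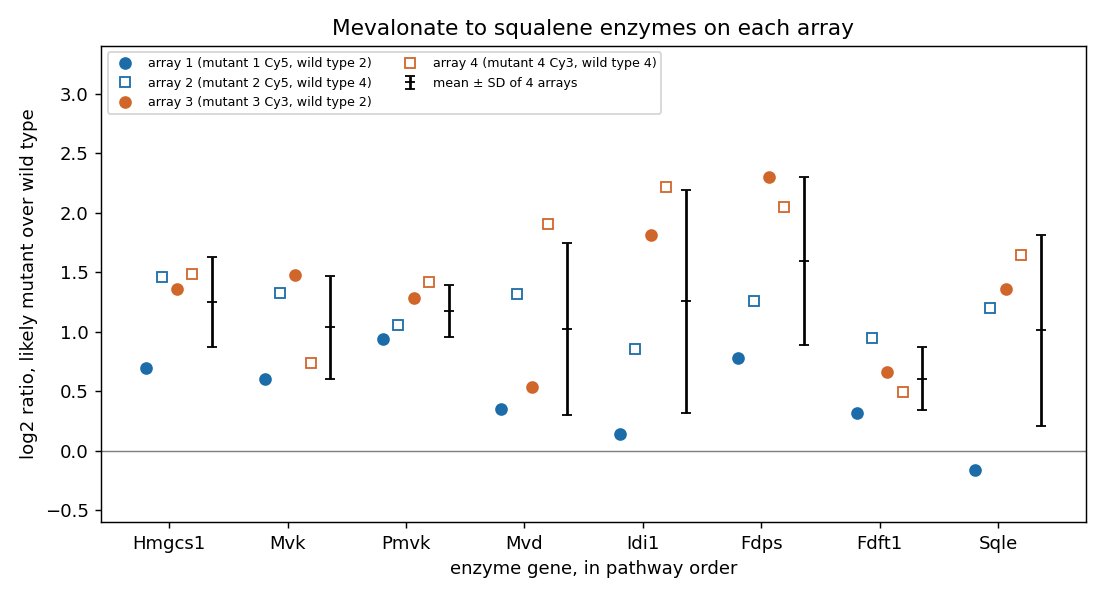
Log2 ratio (vertical axis, likely mutant over wild type) of the 8 measured enzyme genes in pathway order, with a point per array, coloured by the dye on the mutant and shaped by the wild-type animal, and the mean ± SD of the 4 arrays in black. In the deposited direction array 1 is the lowest point of every gene, and Sqle on array 1 is the only point below 0.

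Among the first enzymes, Hmgcs1, the cytosolic HMG-CoA synthase, had log2 ratios of 0.69, 1.46, 1.36 and 1.49 on arrays 1 to 4. Array 1 stood apart, and the other 3 arrays lay close together. The mean was 1.25 ± 0.38 (SD, n = 4 arrays), or 2.38-fold, with a 95% interval of 0.74 to 1.76 and a limma adjusted p of 0.113. Its 2 probes had means of 1.53 and 0.97. The probes were close on arrays 1 and 2 and differed most on array 3, at 2.21 and 0.51.

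Mvk, mevalonate kinase, had values of 0.60, 1.33, 1.48 and 0.74, so arrays 1 and 4 were low and arrays 2 and 3 high. Its mean was 1.04 ± 0.43 (SD, n = 4 arrays; limma adjusted p = 0.237). The means of its 2 probes were 1.00 and 1.08, although on array 4 one probe stood at 0.04 and the other at 1.44.

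Pmvk, phosphomevalonate kinase, which adds the next phosphate, varied least among the 8 genes. Its values were 0.94, 1.05, 1.28 and 1.42, and arrays 3 and 4 were somewhat above arrays 1 and 2. The mean was 1.17 ± 0.22 (SD, n = 4 arrays), or 2.26-fold, with an interval of 0.73 to 1.62. Pmvk had the lowest adjusted p of the 8 by limma, 0.0946, and ranked 103 of 19087 genes by p as deposited; with arrays 3 and 4 turned its adjusted p was 0.938, and Idi1 had the lowest of the 8 at 0.705. Both probes were above 0 on every array, with means of 1.30 and 1.04.

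Mvd, mevalonate diphosphate decarboxylase, was measured by a single probe. Its values were 0.35, 1.31, 0.53 and 1.90, with the 2 arrays of wild-type animal 4 high and the 2 arrays of wild-type animal 2 low. The mean over the arrays of wild-type animal 2 was 0.44 and over those of animal 4 it was 1.61. The mean of all 4 was 1.02 ± 0.72 (SD, n = 4 arrays; limma adjusted p = 0.491).

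Idi1, isopentenyl diphosphate isomerase, which supplies the allylic partner for chain building, spread most over the arrays. It had values of 0.14, 0.85, 1.81 and 2.21, a mean of 1.25 ± 0.94 (SD, n = 4 arrays; limma adjusted p = 0.472). The arrays with the mutant in Cy5 were low and those with the mutant in Cy3 were high, with means of 0.50 and 2.01. A dye coefficient added to the limma fit had an unadjusted p of 0.0129 and an adjusted p of 0.556 for Idi1, and 8.82% of all genes had such an unadjusted p under 0.05. On array 2 its probes stood at 2.04 and -0.33.

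Fdps, farnesyl diphosphate synthase, which makes the last compound shared by sterols and the nonsterol products, had the highest mean. Its gene values were 0.78, 1.26, 2.30 and 2.04, a mean of 1.60 ± 0.70 (SD, n = 4 arrays; limma adjusted p = 0.137). That mean joins 2 probes that behaved differently. The probe annotated to the RefSeq mRNA had 1.88, 3.34, 3.63 and 3.61, high on all arrays and lowest on array 1. It averaged 3.12 ± 0.83 and was the 1 probe of the 14 that rose in the fit of every probe alone, with limma's adjusted p = 0.0479; 0.104% of all probes passed there. At an unadjusted limma p under 0.05 there were 11 of the 14 probes, against 5.23% of all probes. It no longer passed without array 2, without array 3 or without array 4. The other probe, annotated to a cDNA clone of the same gene, had -0.33, -0.83, 0.98 and 0.48 and a mean of 0.07 ± 0.81. With RefSeq mRNA probes only, a choice made after the values had been seen, Fdps passed limma's gene test (mean 3.12, adjusted p = 0.0324). In that fit 58 of 16544 genes passed. The dye coefficient of the gene value had an unadjusted limma p of 0.0252 and an adjusted p of 0.556.

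Fdft1, squalene synthase, commits farnesyl diphosphate to sterols and had the lowest mean. Its values were 0.32, 0.95, 0.66 and 0.49, all above 0 and within a narrow range. The mean was 0.61 ± 0.27 (SD, n = 4 arrays; limma adjusted p = 0.573). Here too the probes parted, although both are annotated to the same RefSeq mRNA. One had 0.50, 1.30, 2.19 and 1.75 (mean 1.44 ± 0.72) and the other had 0.14, 0.59, -0.87 and -0.76 (mean -0.22 ± 0.70). Their distance was largest on the arrays with the mutant in Cy3.

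Sqle, squalene epoxidase, adds the oxygen that precedes ring closure and was measured by a single probe. Its values were -0.16, 1.20, 1.36 and 1.64, with array 1 far below the others. The mean was 1.01 ± 0.80 (SD, n = 4 arrays; limma adjusted p = 0.562). Over the 8 genes, from Fdft1 through Sqle, Mvd, Mvk, Pmvk, Hmgcs1 and Idi1 to Fdps, every gap between neighbouring means was smaller than the larger SD of the pair.

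**Figure D2:**
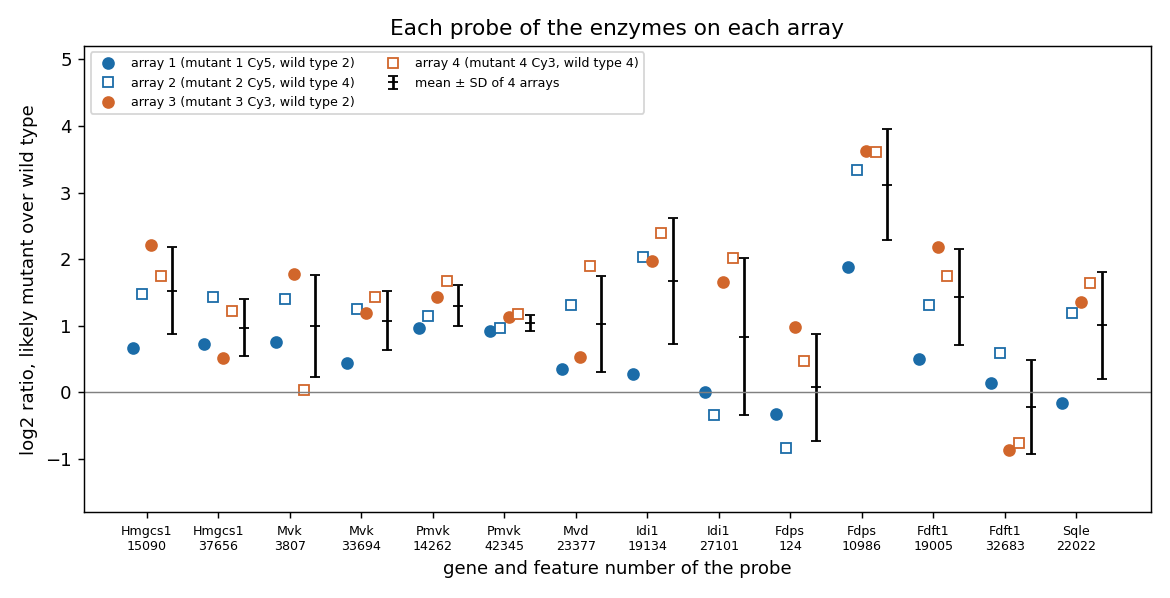
Log2 ratio (vertical axis, likely mutant over wild type) of each of the 14 probes on each array, labelled by gene and feature number, with the mean ± SD of the 4 arrays in black. The paired probes of Pmvk lie close together, whereas those of Fdps have means of 0.07 and 3.12 and those of Fdft1 have means of -0.22 and 1.44.

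As deposited, array 1, with mutant 1, gave the lowest value of all 8 genes. With arrays 3 and 4 turned it did so for 0 of the 8, and array 3 or 4 was then the lowest in each. Over all genes array 1 was the lowest of the 4 arrays in 29.5% as deposited and in 26.8% when turned, and among the 166 genes with a mean of 1 or more it was the lowest in 54.2%. Over the 8 genes the medians of arrays 1 to 4 were 0.47, 1.23, 1.36 and 1.56. On array 1 none of the 8 exceeded 1, against 6 of the 8 on each other array. The spread among the enzymes was narrowest on array 2 (SD 0.21 over the 8 genes) and widest on array 4 (SD 0.61). Arrays 3 and 1 share wild-type animal 2, and all 8 genes were higher on array 3, by a median of 0.77, while the median over all genes was 0.01. Arrays 4 and 2 share wild-type animal 4, and 6 of the 8 were higher on array 4, by a median of 0.41. With arrays 3 and 4 turned, 0 of the 8 were higher on array 3 than on array 1 (median difference -2.004) and 0 of the 8 higher on array 4 than on array 2 (median difference -2.89). Each of these pairs also differs in dye, so the mutant animal and the dye cannot be told apart. The mean of the arrays with the mutant in Cy3 exceeded that of the arrays with the mutant in Cy5 in 7 of the 8 genes, with Fdft1 as the exception, and in 49% of all genes; with arrays 3 and 4 turned this held for 0 of the 8 and 50.7% of all genes. All 8 genes lay above 0 on arrays 3 and 4 as deposited, so turning makes those values negative. The orders given for the turned arrays follow from this and are no separate test. A smoothed trend across the array surface held 34.1% of the variance of array 1 and 12.2% to 21.8% on the others. With that trend subtracted all 8 means stayed above 0.

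The promoter windows are shown because these genes are known as targets of shared sterol-responsive elements. As deposited, the mean ratios of the measured genes also lay on the same side of 0. RefSeq windows of 300 bases, from 250 before the start of transcription, were at hand for 6 of the 9 genes (build GRCm38.p6). These were Acat2, which has no ratio here, Hmgcs1, Mvk, Pmvk, Mvd and Idi1, and there was no window for Fdps, Fdft1 or Sqle. Capitals mark matches on either strand to the sterol regulatory element (TCACNCCAC), the CCAAT box (CCAAT), the GC box (GGGCGG) and the E-box (CACGTG), and none of these letter strings contains another. Hmgcs1 (chr13:119690101-119690400, plus strand), Mvk (chr5:114444019-114444318, plus strand), Pmvk (chr3:89454291-89454590, plus strand, the first of its 2 annotated starts) and Idi1 (chr13:8885356-8885655, plus strand) read as follows, 5′ to 3′.
Hmgcs1: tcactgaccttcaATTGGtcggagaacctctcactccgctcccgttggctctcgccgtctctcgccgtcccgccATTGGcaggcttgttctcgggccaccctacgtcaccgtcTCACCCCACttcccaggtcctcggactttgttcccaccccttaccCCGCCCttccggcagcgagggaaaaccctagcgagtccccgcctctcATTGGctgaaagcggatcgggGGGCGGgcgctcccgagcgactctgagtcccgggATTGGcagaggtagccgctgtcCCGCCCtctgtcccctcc
Mvk: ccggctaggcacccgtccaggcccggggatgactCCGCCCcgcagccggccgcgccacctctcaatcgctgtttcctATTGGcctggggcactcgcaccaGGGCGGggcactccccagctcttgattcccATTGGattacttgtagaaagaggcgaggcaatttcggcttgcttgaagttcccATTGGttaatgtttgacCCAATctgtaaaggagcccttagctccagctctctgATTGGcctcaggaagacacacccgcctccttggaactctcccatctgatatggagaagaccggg
Pmvk: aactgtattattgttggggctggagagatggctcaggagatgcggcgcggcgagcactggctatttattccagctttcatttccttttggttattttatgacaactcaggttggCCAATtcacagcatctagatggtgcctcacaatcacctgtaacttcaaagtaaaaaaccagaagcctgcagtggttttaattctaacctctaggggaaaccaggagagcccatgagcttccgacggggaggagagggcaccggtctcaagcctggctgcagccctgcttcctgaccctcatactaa
Idi1: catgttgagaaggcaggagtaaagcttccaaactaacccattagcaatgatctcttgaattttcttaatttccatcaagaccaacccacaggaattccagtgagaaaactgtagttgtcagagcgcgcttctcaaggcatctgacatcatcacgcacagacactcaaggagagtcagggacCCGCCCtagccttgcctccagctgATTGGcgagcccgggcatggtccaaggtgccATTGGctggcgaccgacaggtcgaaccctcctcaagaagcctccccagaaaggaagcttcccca

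A match to the sterol regulatory element occurred in 1 of the 6 genes, Hmgcs1, at position -137 from the start, and 1.24% of all 32851 windows held one. The strict letters used here leave out many variants of the element, and a missing match says only that these letters are not in the window. CCAAT matches were found in 5 of the 7 windows, against 37.4% of all windows, with 4 in Hmgcs1 and 5 in Mvk. The GC box was found in 5 of the 7, against 35.7% of all windows, with the 2 windows of Pmvk as the exceptions. The E-box was found in 0 of the 7, against 7.15%. Of 12 windows of the later sterol enzymes, 10 held a CCAAT match and 11 a GC box, so these matches are not particular to this set. Pmvk had a single match in the window shown and none in its second. The start of Mvk lies 242 bases from that of Mmab on the opposite strand, a gene of vitamin B12 metabolism. Mmab had values of 0.29, 0.69, 1.32 and 0.78 (mean 0.77 ± 0.43, SD, n = 4 arrays; limma adjusted p = 0.493); it was singled out after these values had been seen.

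Genes outside this pathway are named with limma's calls as deposited, and 20 genes of the lists passed. Of these 20, 12 passed without array 1, 5 without array 3, 5 with the arrays scaled to one spread, and 0 without array 2, without array 4 or with arrays 3 and 4 turned. Over all 19087 genes, 15 passed as higher and 32 as lower in the main fit. At an unadjusted limma p under 0.05 there were 591 with a mean above 0 and 677 with a mean below 0.

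The enzymes that follow, from lanosterol to cholesterol, were more mixed in their ratios. Of 10 measured, 1 rose, 0 fell and 9 did not pass, with a median of 0.73 and 7 means above 0. At an unadjusted limma p under 0.05, 6 of the 10 were higher, against 591 of all 19087 genes. Dhcr7, which makes cholesterol from its direct precursor in one branch, rose on arrays 1 to 4 at 1.72, 1.68, 2.25 and 2.10 (mean 1.94 ± 0.28, SD, n = 4 arrays; limma adjusted p = 0.0341), a call that was lost without any 1 of the arrays (adjusted p = 0.0811 to 0.316). Sc5d, the desaturase before it, stood at 1.57 ± 0.30 (adjusted p = 0.0502) and Nsdhl, a dehydrogenase that helps to remove methyl groups, at 1.27 ± 0.56. Cyp51, lanosterol demethylase, had -0.41 on array 1 and 1.22, 1.72 and 1.34 on arrays 2 to 4. Lss, which closes the rings, likewise had -0.21 on array 1 and 1.00, 1.33 and 1.09 on the others, so both resembled Sqle in being below 0 on array 1 alone. Lbr and Tm7sf2, which encode sterol reductases of the same step, stood at -0.74 and -0.01, and Hsd17b7 at -0.21. Whether the early and the late enzymes differ was not tested.

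Among the genes that regulate SREBP, 1 of 9 measured rose, 0 fell and 8 did not pass, and the list median was -0.16. At an unadjusted limma p under 0.05, 2 of the 9 were higher, against 591 of all 19087 genes. Srebf2, which encodes SREBP-2, had -0.09, 0.19, 0.20 and 0.10 on arrays 1 to 4, a mean of 0.10 ± 0.14 (SD, n = 4 arrays; limma adjusted p = 0.954) with a 95% interval of -0.33 to 0.52. The mean of Srebf1, from which SREBP-1 is made, was 3.72 ± 0.62 (limma adjusted p = 0.0100), a rise that did not pass without array 2 (0.173) or without array 4 (0.138). Insig1, which holds the SREBP escort in the endoplasmic reticulum and is itself an SREBP target, had 1.53, 3.62, 2.72 and 3.21, again lowest on array 1 (mean 2.77 ± 0.90; adjusted p = 0.0502). Scap, the escort, stood at 0.23 and Insig2 at -0.62, where Insig2 was -1.97 on array 2 and -0.25 to -0.01 on the others.

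Branches that draw on the same isoprene units without making sterol gave no calls: of 14 measured genes 0 rose and 0 fell by limma's adjusted p. At an unadjusted p under 0.05 there was 1 of the 14, against 1268 of all 19087 genes. The median of the 14 was -0.09, and 0 of them lay above 0 on all 4 arrays, against 7.69% of all genes. Rabggtb, a subunit of the enzyme that prenylates Rab proteins, stood at -0.67 ± 0.19, and Nus1, part of the dolichol-forming prenyltransferase, at -0.88 ± 1.70 with -3.30 on array 4.

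Sterol uptake and handling genes had a median of 0.03, with 0 of 7 measured past the adjusted limma threshold. At an unadjusted limma p under 0.05 there were 2 of the 7, against 1268 of all 19087 genes. Stard4, a sterol carrier, was at 1.04 ± 0.52 and Npc1, the lysosomal cholesterol exporter, at -0.49 ± 0.22 (SD, n = 4 arrays).

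Relatives of the enzymes that serve other pathways were mostly below 0. Of 5 measured, 0 passed the adjusted limma threshold and 3 were lower at an unadjusted p under 0.05, against 677 of all 19087 genes. Acat1, the mitochondrial acetoacetyl-CoA thiolase, had -0.98, -1.14, -0.62 and -0.81 (mean -0.89 ± 0.22, SD, n = 4 arrays; limma adjusted p = 0.215). The peroxisomal thiolases Acaa1a and Acaa1b stood at -1.28 ± 0.50 and -1.38 ± 1.05, and Idi2, a relative of Idi1, at 0.05 ± 0.39. Acetyl-CoA and NADPH supply genes had a median of 0.74, with 1 of 9 measured rising, the fatty acid synthase gene Fasn at 2.74 ± 0.80 (limma adjusted p = 0.0424, and 0.0987 to 0.262 with an array left out). Acly, which makes cytosolic acetyl-CoA from citrate, was at 1.36 ± 0.56 and did not pass. Of the 9 supply genes, 5 were higher at an unadjusted limma p under 0.05, against 591 of all 19087 genes.

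**Figure D3:**
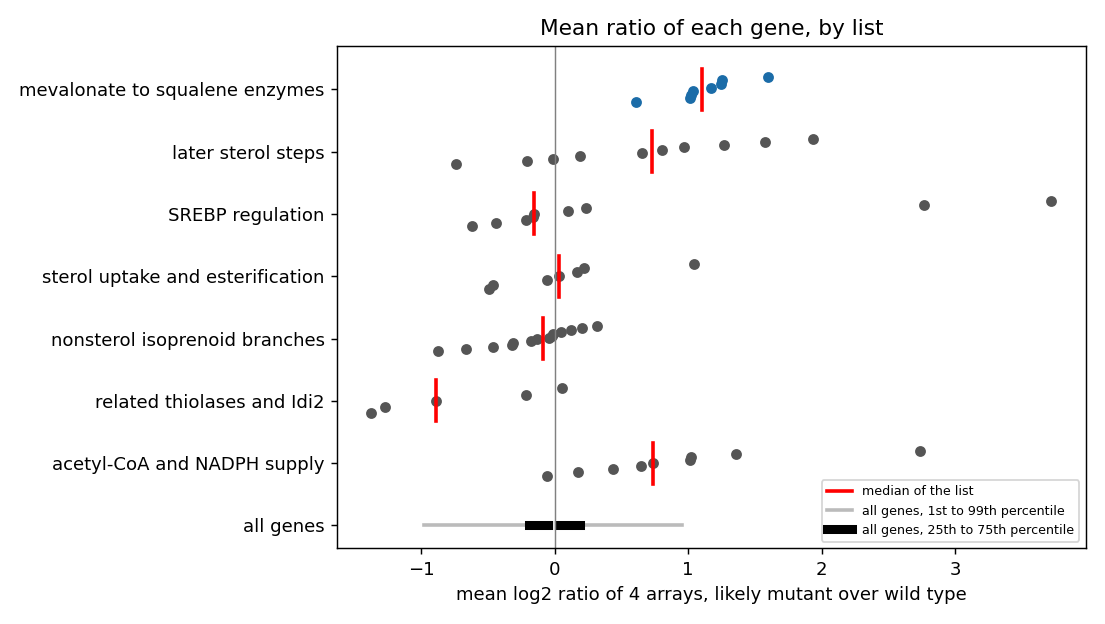
Mean log2 ratio of the 4 arrays (horizontal axis, likely mutant over wild type) for each measured gene, by list, with the list median as a red bar; the lowest row gives the 1st to 99th and 25th to 75th percentiles of all genes. The 8 mevalonate to squalene enzymes lie between 0.61 and 1.60, whereas the later sterol enzymes extend from -0.74 to 1.94 and the 99th percentile of all genes is 0.96.

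Genes of other groups also passed the threshold on these arrays, where 15 of all 19087 genes passed as higher and 32 as lower. Of 17 measured fatty acid oxidation genes 7 fell and 0 rose (Ehhadh, Cyp4a10, Cyp4a14, Angptl4, Cpt1a, Acadm and Acadl), with a median of -1.81. Of 8 measured genes that are more active in female liver 5 fell (Xist, Cyp17a1, A1bg, Sult3a1 and Cyp2b13), with a median of -3.88, and Cyp3a41a stood at -5.49 ± 2.21 without passing. Of 10 that are more active in male liver 3 rose (Elovl3, C8a and Nudt7), with a median of 3.01. The male-predominant list averaged 1.03, 2.59, 3.14 and 3.12 on arrays 1 to 4, while the 8 enzymes had means of 0.46, 1.18, 1.35 and 1.49. Among markers of liver cell types, 0 of 6 for hepatocytes passed by limma's adjusted p. At an unadjusted p under 0.05, 2 of the 6 were higher, against 591 of all 19087 genes. The hepatocyte list mean was 0.41 ± 0.11 (SD, n = 4 arrays). Of 4 red cell markers 1 rose, Alas2, at a list mean of 1.11 ± 0.29, and 3 were higher at an unadjusted limma p under 0.05. The list means of the other 6 cell types lay between -0.24 and 0.27, with 1 further gene past the threshold, the adipocyte marker Plin4, which fell to -2.02. The part of these groups in the values of the 8 enzymes was not tested.

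**Figure D4:**
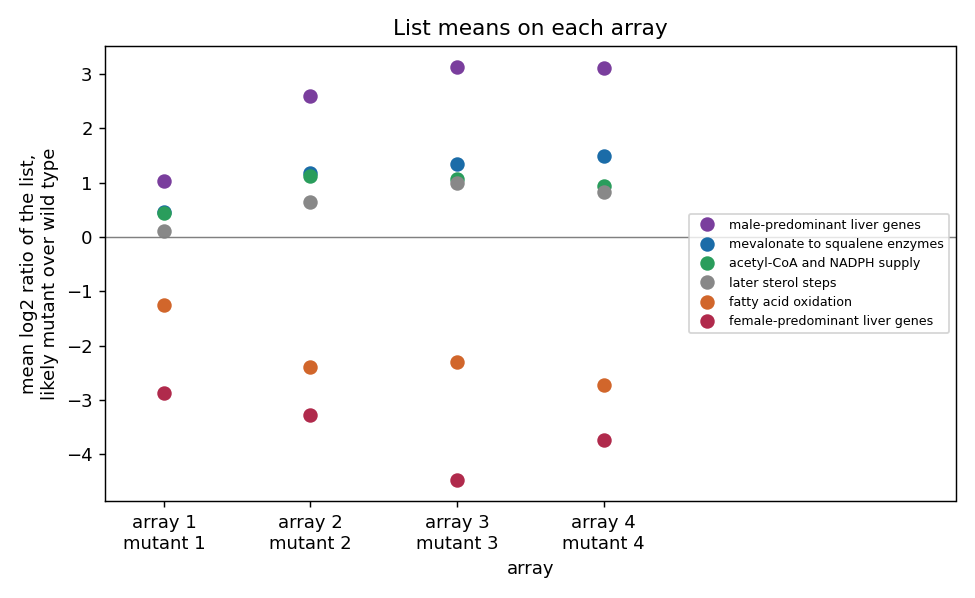
Mean log2 ratio (vertical axis, likely mutant over wild type) of 6 gene lists on each of the 4 arrays, with a point per list and array. The mevalonate to squalene enzymes had 0.46 on array 1 and 1.18 to 1.49 on the others, and each of the 6 lists lay nearest 0 on array 1.

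Across the other ways of processing the ratios, apart from turning arrays 3 and 4, all 96 recomputed gene means (8 genes under 12 settings) stayed above 0. Many of the 96 could not differ from the main means. The random block, the dye coefficient, robust eBayes and the median over probes returned the main means of all 8 genes. The restriction to RefSeq mRNA probes changed only the mean of Fdps. The number of enzymes past the adjusted limma threshold was 3 with a random block for the wild-type animal (Pmvk, Fdps and Hmgcs1), 1 with the spatial trend subtracted (Fdps), 1 with RefSeq mRNA probes only (Fdps) and 0 in the others. The random block left the means unchanged, and its consensus correlation was negative (-0.367). A negative correlation lowers the standard error of a mean, and 194 genes in all passed in that fit against 47 in the main fit. With the spatial trend subtracted 122 genes passed, and with RefSeq mRNA probes only 58 of 16544 genes. Pmvk had means of 1.02 to 1.25 over the 12 settings, and Fdft1 0.49 to 0.70. Fdps had 1.36 to 3.12, the highest with RefSeq mRNA probes only. No setting chose between the probes of the other genes, so their dependence on the probe was not tested. The 2 probes of Fdft1 had means of -0.22 and 1.44.

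**Figure D5:**
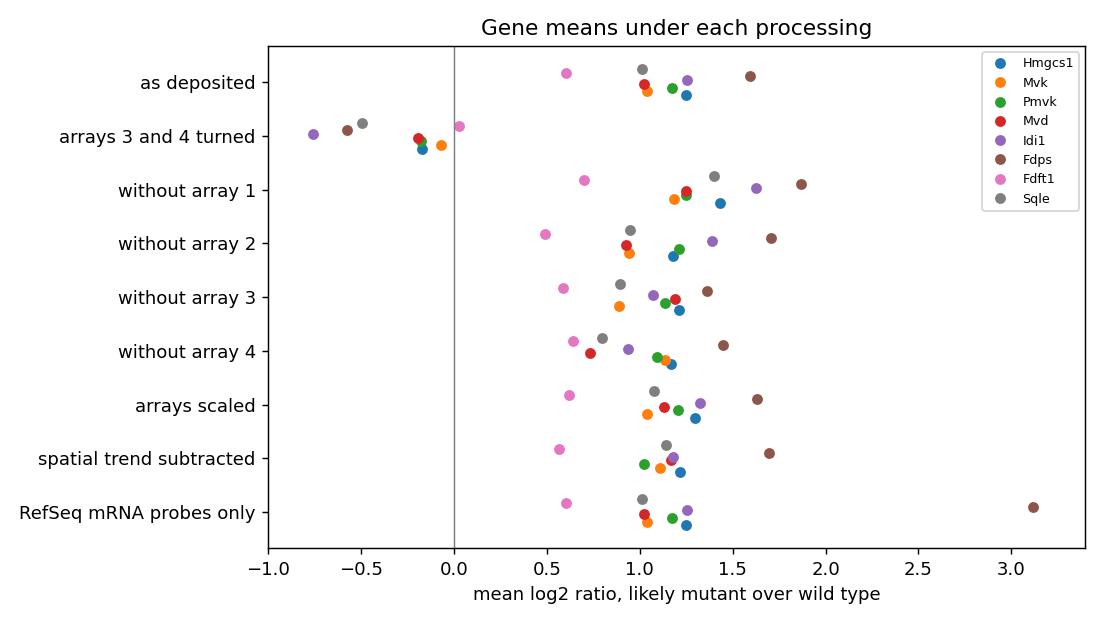
Mean log2 ratio (horizontal axis, likely mutant over wild type) of each of the 8 genes under 9 ways of processing the values. All points are above 0 except with arrays 3 and 4 turned, where 7 of the 8 are below 0 and Fdft1 is at 0.03.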

How the data were processed

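The values analysed were the log2 ratios deposited by the authors, 1 per probe and array, with 0 missing among 43379 probes. Per the submitters' processing notes limma was used, with no version; of background correction, within-array normalization, filters and direction the sources used here say nothing. The log base is read from the values and the tool. Signal intensities were not used, so no probe could be called above or below background, and the number of arrays limits the precision.

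Probes were named from the platform annotation, in which 33653 probes had 1 symbol, 56 several and 9670 none. Ratios of a gene's probes were averaged, and each of 19087 genes was tested against 0 with limma 3.58.1 under R 4.3.3 (an intercept-only lmFit, then eBayes with a prior of 3.63 degrees of freedom, two-sided) with Benjamini-Hochberg adjustment at 0.05; intervals are limma's at 95%. The 4 arrays formed 1 group and shared 2 wild-type animals, so they are not fully independent, and the spread is between these arrays. The fit was tested on simulated data with 4 independent arrays. These had no shared animal, dye effect or surface trend, so that test says nothing of how the fit behaves with them. The members, gene lists and motifs were chosen with earlier results of these data known. Named were all members, in each list the genes past the threshold and the 2 with the largest mean in size (any gene in the later sterol, SREBP and related-enzyme lists), and the 5 genes nearest in profile. Promoters are RefSeq's (GRCm38.p6).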

Additional observations from a re-analysis of the deposited data

Results flagged for a closer look

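For each of the 8 genes, 14 probes and 18 gene lists, the 4 arrays were checked for 1 that stood far from the other 3 relative to their whole range. This marked 2 of 40 values, and chance marks about 1 in 20. Hmgcs1 stood at 0.69 on array 1, against 1.36 to 1.49 on the others. The RefSeq mRNA probe of Fdps stood at 1.88 on array 1, against 3.34 to 3.63 on the others.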

How the results depend on the processing

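With the signs of arrays 3 and 4 turned, the median of the 8 genes was -0.19 and Hmgcs1 stood at -0.17, Mvk at -0.072, Pmvk at -0.18, Mvd at -0.19, Idi1 at -0.76, Fdps at -0.58 and Sqle at -0.49, while Fdft1 kept a positive mean. Then 0 genes, 0 probes and 0 of the enzymes' 14 probes passed limma's adjusted threshold, against 47 genes, 45 probes and 1 as deposited (1518 genes, 3844 probes and 3 of the 14 had an unadjusted p under 0.05). Every statement of direction depends on that choice. Leaving out each array in turn gave 0 to 34 genes, 0 to 18 probes, 0 of the 8 enzymes each time (5 to 8 at an unadjusted p under 0.05) and 0 to 1 of their probes. Over all 19087 genes, 926 to 1432 had an unadjusted limma p under 0.05 in these fits. No gene passed when array 2 or array 4 was left out. Bringing the arrays to one median absolute deviation gave 15 genes and 0 of the enzymes' probes, and robust eBayes also 0 of the enzymes' probes (11 of the 14 at an unadjusted p under 0.05 in each). Of all 43379 probes, 2356 and 2229 had such an unadjusted limma p in these 2 fits. A random block for the wild-type animal (consensus correlation -0.367) gave 194 genes, 239 probes, 3 of the enzymes and 3 of their probes. Subtracting the spatial trend gave 122 genes, 142 probes and 1 of the enzymes. RefSeq mRNA probes only, chosen after seeing the data, gave 58 of 16544 genes and 1 of the enzymes. Centring the arrays, the median over a gene's probes (the same as the mean for genes with 2 probes) and a dye coefficient changed no call of the 8 enzymes. Of 442 recomputed counts for the context lists 61 moved, which means by over 1.5 times or between 0 and any other count. The cause of these shifts was not tested. No filter on dim probes was run, because no intensities were used.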

Other observations

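The genes outside all lists whose 4 ratios lay nearest the mean profile of the 8 enzymes, by root mean square distance over the 4 arrays, were Ido2 (distance 0.11), Hao1 (0.19), Ifitm3 (0.22), Tcea3 (0.24) and Enpp3 (0.26). Ido2 had 0.36, 1.31, 1.47 and 1.42 on arrays 1 to 4, and Hao1 had 0.77, 1.26, 1.54 and 1.43. None of the 5 passed limma's adjusted threshold. With 4 arrays such a likeness is a description only. Acat3, which lies beside Acat2 on chromosome 17 and was named after its value had been seen, had 0.55, 1.31, 0.71 and 0.97 (mean 0.88 ± 0.33, SD, n = 4 arrays; limma adjusted p = 0.289).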
